A study of Drosophila melanogaster with 3 samples.

Results

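Gene starts of biotype ncRNA that lie apart from protein-coding promoters were examined for binding of the fly transcription factor Deaf1 in embryos. The members are the genes that the Ensembl annotation of the dm6 build gives the biotype ncRNA and whose start, the 5′ end of the gene on its strand, lies over 1 kb from every protein-coding transcription start site (TSS). Of 3304 ncRNA genes, 2368 met this rule. Each is described as a window of 500 bp either side of its start. Of these windows, 2325 lay on the 6 chromosome arms that hold peaks (2L, 2R, 3L, 3R, 4 and X), among 18164 gene starts of every kind there. The other 43 lay outside these arms, where no list has a peak, and they enter no share below. The name "long non-coding RNA" covers only most of the members: on the arms, 1514 were long non-coding RNA (lncRNA) genes and 209 were antisense RNA genes, but 197 were microRNA hairpins, 371 were entries for single mature microRNAs and 34 were of other kinds. A longest transcript over 200 nt was annotated for 1738 members, and values for those are given beside the values for all where the difference matters.

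The data are chromatin immunoprecipitation with sequencing (ChIP-seq) of whole embryos of pooled sex, collected from 0 to 24 hours of age, in 3 biological replicates of 1 group. All 3 came from a transgenic line that stably expresses Deaf1 with green fluorescent protein (GFP) fused to its C terminus, and an anti-GFP antibody was used. The labels name no other genotype, treatment or untagged group, so nothing was compared between conditions, and a whole embryo mixes tissues and ages, so a peak does not tell in which cells the protein sat. The authors deposited a peak list for each replicate, one for the pooled reads and an optimal set from the irreproducible discovery rate (IDR), which keeps peaks that rank alike in the replicates. The replicate and pooled lists hold 30000 peaks each and the IDR set 8667 summits. The number of reads behind them is unknown.

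Deaf1 is a DNA-binding protein whose SAND domain recognises TTCG-containing DNA, and it was first described at a regulatory region of the Hox gene Deformed. Long non-coding RNAs are transcribed by RNA polymerase II much as messenger RNAs are, and some act as RNA while others are long precursors of microRNAs. A microRNA is cut from a hairpin in its primary transcript, which can start many kilobases upstream, so the start of a hairpin entry is a processing site and not a promoter. It pairs with its targets mainly through its seed, bases 2 to 8.

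The strongest Deaf1 summits at isolated ncRNA starts lay over DNA with varied matches to the Deaf1 word. The lines below give the strongest IDR summit in the window with 50 bp either side, on the plus strand of dm6, 5′ to 3′, read from the RefSeq copy of the genome. They show CR45911, CR44997 and CR43334, the 3 members of highest signal, the lncRNAs over mir-375 (CR45345) and over the miR-279 cluster (CR31044), an intronic lncRNA at prospero (CR46008), and roX1. Capitals mark TTCGG or its reverse complement CCGAA.
CR45911, chr3R:15420457-15420557: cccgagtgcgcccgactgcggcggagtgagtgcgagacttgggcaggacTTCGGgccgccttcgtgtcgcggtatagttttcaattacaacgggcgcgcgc
CR44997, chrX:22657173-22657273: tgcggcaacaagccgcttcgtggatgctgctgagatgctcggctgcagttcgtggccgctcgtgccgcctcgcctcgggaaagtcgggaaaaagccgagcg
CR43334, chr3L:628163-628263: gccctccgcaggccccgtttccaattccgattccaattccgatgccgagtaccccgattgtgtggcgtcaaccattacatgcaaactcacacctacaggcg
CR45345, chr2L:857267-857367: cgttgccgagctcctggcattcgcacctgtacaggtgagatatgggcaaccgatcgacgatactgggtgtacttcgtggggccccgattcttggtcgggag
CR31044, chr3R:29214397-29214497: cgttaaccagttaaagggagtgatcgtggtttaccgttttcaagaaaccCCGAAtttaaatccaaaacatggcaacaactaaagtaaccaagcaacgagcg
CR46008, chr3R:11335969-11336069: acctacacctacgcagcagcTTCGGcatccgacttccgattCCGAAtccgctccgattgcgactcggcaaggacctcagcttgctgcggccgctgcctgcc
roX1, chrX:3862470-3862570: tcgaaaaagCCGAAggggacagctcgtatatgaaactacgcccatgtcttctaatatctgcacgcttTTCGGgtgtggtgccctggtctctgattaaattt

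The summit regions of CR44997, CR43334 and CR45345 held 0 TTCGG words. CR45911 and CR31044 held 1 each, and CR46008 and roX1 held 2 each. The 4-base word TTCG or its complement was present 2 times at CR44997 and 2 times at CR45345, and 0 times at CR43334. The GC content of these windows was 65.3% at CR45911, 65.3% at CR44997, 56.4% at CR43334, 59.4% at CR45345, 41.6% at CR31044, 63.4% at CR46008 and 46.5% at roX1.

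Several of the lncRNA genes with a summit at their start are annotated over microRNA hairpins, and their mature products are shown because they name the RNA made from these loci. The lines are RNA, 5′ to 3′, read at the annotated coordinates, with the seed in capitals. The arm of the hairpin (5p or 3p) was assigned by position.
miR-2c-3p: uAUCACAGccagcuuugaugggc
miR-13a-3p: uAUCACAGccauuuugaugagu
miR-13b-1-3p: uAUCACAGccauuuugacgagu
miR-279-3p: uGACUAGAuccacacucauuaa
miR-996-3p: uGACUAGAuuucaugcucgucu
miR-ban-3p: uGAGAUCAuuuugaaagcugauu
miR-375-3p: uUUGUUCGuuuggcuuaaguua

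The first 3, from hairpins inside CR45911, share the seed AUCACAG. miR-279 and miR-996, both inside CR31044, share the seed GACUAGA. The bantam sequence comes from CR43334 and the miR-375 sequence from CR45345. No expression was measured, so these sequences say nothing about how much of each RNA the embryos held.

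Deaf1 sat at fewer than 10% of the isolated ncRNA starts, less often than at protein-coding starts and more often than at other positions away from coding promoters. An IDR summit lay in 216 of the 2325 windows (9.29%, 95% exact Clopper-Pearson interval 8.14% to 10.5%), against a background of 21.5% over all 18164 gene starts. The 216 starts drew on 208 distinct summits, and 61 of them shared their strongest summit with another member, mostly hairpins with their own mature entries. With overlapping windows merged, 171 of 1766 regions (9.68%) were occupied. Of the members with a transcript over 200 nt, 168 of 1738 (9.67%) were occupied.

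Each replicate gave nearly the same share. To put the replicates on one scale, each list was limited to its 8667 peaks of highest signal, here called its top list. The share of members with a top-list summit was 9.38% in replicate 1, 8.95% in replicate 2 and 9.29% in replicate 3 (mean 9.20% ± 0.228, SD, n = 3), and over all gene starts it was 21.1%, 22.2% and 21.1%. Of the 216 occupied members, 202 had a summit in the window in the whole lists of all 3 replicates, 10 in 2 and 4 in 1. In the top lists 176 had one in all 3 replicates, 30 in 2, 9 in 1 and 1 in none. The IDR set was built from agreement between replicates, so these counts follow in part from how it was made.

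Isolated protein-coding starts, which are gene starts over 1 kb from every TSS of any other coding gene, were occupied more often in each replicate. Their share was 22.97%, 22.9% and 23.1% in replicates 1, 2 and 3, which is 13.8 ± 0.161 percentage points above the ncRNA starts (higher in 3 of 3 replicates). An exact permutation test over the 3 replicates, by two-sided sign flips, gave p = 0.25. That is the smallest p that 3 replicates allow, so no comparison here can pass a threshold of 0.05, and the size against the SD is what the replicates offer. All replicates score the same starts, so the SD shows how repeatable the peak lists were and not the spread between starts. The 936 ncRNA starts within 1 kb of a coding TSS were occupied at 19.6%, 19.98% and 19.98%, or 10.6 ± 0.432 points above the isolated ones (3 of 3 replicates, exact p = 0.25). Their windows can reach over the neighbouring coding promoter.

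Isolated ncRNA starts nevertheless stood above the average position away from coding promoters. Every position of the 6 arms that is over 1 kb from a coding TSS, 106761049 in all, was scored with the same window. An IDR summit lay within 500 bp of 3.05% of them. In the top lists the figure was 2.93%, 2.96% and 2.87%, so ncRNA starts were 3.15 ± 0.115 times as often occupied (3 of 3 replicates, exact p = 0.25). Their windows took up 1.68% of these positions and held 5.64% of the 3564 IDR summits there. The positions were not filtered for repeats or gaps, where a summit may not be callable. Against flanking kilobases nearby, described below, the ratio of summit counts was smaller, at 2.12 ± 0.0675.

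**Figure D1:**
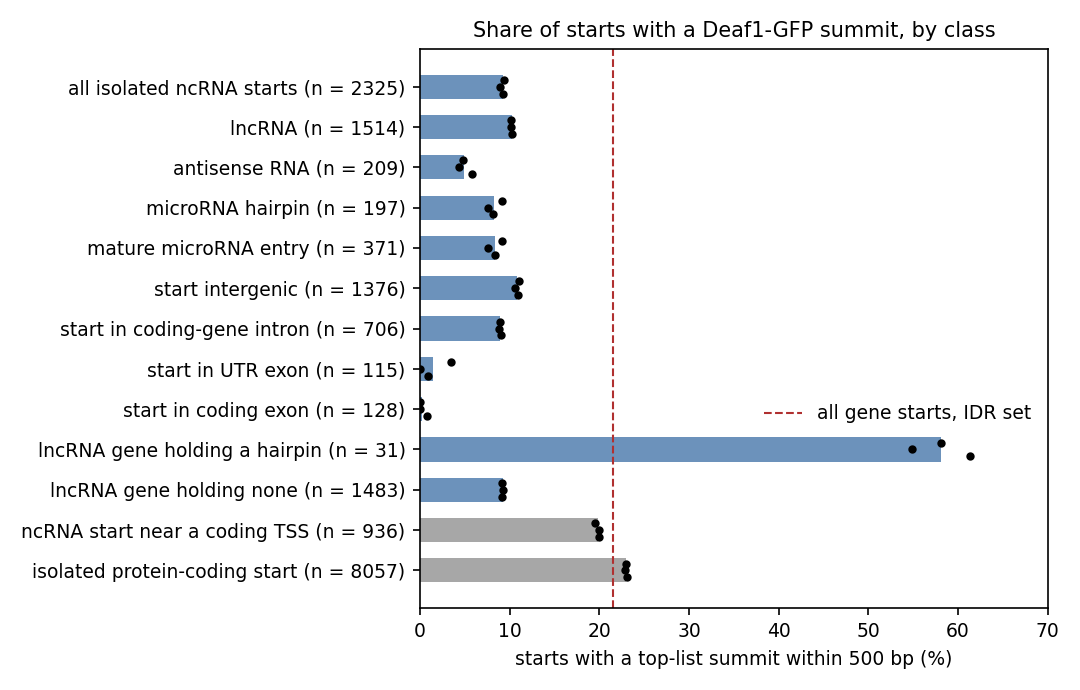
Share of starts with a top-list summit within 500 bp, in percent, for classes of isolated ncRNA starts (blue) and for 2 comparison classes (grey). Bars are means over 3 replicates, dots are the replicates, n is the number of starts, and the dashed line is the 21.5% of all gene starts in the IDR set. lncRNA genes that hold a microRNA hairpin stand at 58.1%, while starts in coding exons stand near 0.

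The excess was measured at starts between genes and in introns, while starts in exons of coding genes were rarely occupied. Of 1376 members starting in intergenic DNA, 151 (10.97%) had an IDR summit, against 2.96% of intergenic positions over 1 kb from a coding TSS. The replicate shares were 10.97%, 10.6% and 10.9%, or 3.85 ± 0.152 times those of intergenic positions. Of 706 members starting in an intron of a coding gene, 64 (9.07%) were occupied, against 4.05% of such intronic positions, and the replicates gave a ratio of 2.29 ± 0.0732. Both ratios were above 1 in 3 of 3 replicates (exact p = 0.25 each).

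In exons the picture was different. Of 115 members starting in an untranslated exon of a coding gene, 1 was occupied, the antisense gene CR46266 inside CG8757 (signal 847.3). None of the 128 that start in a coding exon had an IDR summit, and the top list of replicate 3 put one at 0.781% of them. A count of 0 of 128 allows a share of up to 2.84% (upper limit of the exact interval), and 0.479% of coding-exon positions over 1 kb from a coding TSS had one, so a difference from such positions was not detectable with this number of starts. In the untranslated exons the mean difference from such positions was -0.173 ± 1.77 percentage points (exact p = 1), with 1 of 3 replicates higher.

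lncRNA genes were occupied more often than antisense genes. The lncRNA share was 10.2% in each of replicates 1, 2 and 3 (155 of 1514 genes in the IDR set), and the antisense share was 4.78%, 4.31% and 5.74% (11 of 209). The difference was 5.25 ± 0.695 points (3 of 3 replicates, exact p = 0.25). The 95% exact intervals over starts overlapped, at 8.76% to 11.9% for lncRNA and 2.66% to 9.22% for antisense genes. The classes were not matched for location: 1125 of the lncRNA genes started between genes, where members were occupied more often. The part of location in the difference was not tested. The strongest antisense member was bsAS, antisense to blistered, a serum response factor of wing and tracheal development. Relative to the median of each list its signal was 7.09, 7.61 and 7.93.

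The share also differed with the surrounding gene and with distance from coding promoters, and these values depended on whether short entries were counted. Members inside a coding gene were occupied at 7.84% on the opposite strand (38 of 485) and 5.99% on the same strand (27 of 451). In the replicates intergenic starts lay 3.27 ± 0.177 points above the first of these and 4.55 ± 0.197 points above the second (3 of 3 replicates, exact p = 0.25 each). For members over 200 nt the IDR shares were 6.80% on the opposite strand (28 of 412) and 7.55% on the same strand (12 of 159). Their top-list shares in replicates 1, 2 and 3 were 6.55%, 6.55% and 7.28% on the opposite strand. On the same strand they were 6.92%, 6.92% and 6.29%, so the order of the strands was not settled. Intergenic starts over 200 nt lay 4.25 ± 0.348 points above the opposite strand and 4.34 ± 0.440 above the same strand in the replicates (3 of 3 replicates, exact p = 0.25 each). Spliced members stood at 9.49% ± 0.407 and single-exon members at 9.10% ± 0.206 (SD, n = 3), a difference of 0.393 ± 0.346 points, about the size of its SD. With only members over 200 nt it was -0.126 ± 0.467 points (2 of 3 replicates higher, exact p = 1), and among intergenic lncRNA genes 1.48 ± 0.548 points (3 of 3 replicates, exact p = 0.25). By distance to the nearest coding TSS the IDR share was 9.29% at 1 to 2 kb, 10.3% at 2 to 5 kb, 9.0% at 5 to 10 kb and 8.21% over 10 kb. In the replicates the nearest class lay 1.54 ± 0.131 points above the farthest (3 of 3 replicates, exact p = 0.25). For members over 200 nt the IDR shares were 12.1%, 10.8%, 7.51% and 8.05%, and the same difference was 3.83 ± 0.342 points (3 of 3 replicates, exact p = 0.25). The 95% exact intervals over starts of the nearest and farthest classes overlapped. They were 6.90% to 12.2% and 6.08% to 10.8% for all members. For members over 200 nt they were 8.92% to 15.9% and 5.67% to 11.0%. By arm the IDR share ran from 7.93% on 3L to 10.8% on 3R and on 2R, and on chromosome 4 it was 1 of 16 members, CR46488.

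The members with the highest signal were lncRNA genes between genes, and several of them are annotated over microRNA hairpins. Signals are the authors' peak caller's own values and are not scaled between lists, so each replicate's signal is given as a multiple of the median of its own 30000 peaks. CR45911 (FBgn0267571, 3R, 15417320 to 15420710, minus strand), annotated over the hairpins mir-2c, mir-13a and mir-13b-1 of the K-box family, had the strongest summit of all members, 203 bp downstream of its start. It reached 85.1, 79.3 and 72.96 times the list median in replicates 1, 2 and 3 (mean 79.1 ± 6.06, SD, n = 3) and ranked 104 of the 8667 IDR summits. CR44997 (FBgn0266348, X, 22657324 to 22797682, plus strand), a spliced gene 24614 bp from the nearest coding TSS, reached 73.1, 77.8 and 64.8 times the median (71.9 ± 6.62), with its summit upstream of the start.

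CR43334 (FBgn0286827, 3L, 628435 to 643900, plus strand) is annotated over bantam, a microRNA that promotes tissue growth and blocks cell death. Its summit lay 222 bp upstream of the start and reached 72.8, 79.4 and 62.02 times the median (71.4 ± 8.79). CR45312 on 2R, with no hairpin, reached 68.8, 79.7 and 63.0 times the median (70.5 ± 8.45). The order of CR45911, CR44997, CR43334 and CR45312 is not resolved by the replicates, since replicate 2 put all 4 between 77.8 and 79.7.

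CR44206 on 2R, which holds mir-184, reached 59.5, 60.3 and 60.9 times the median (60.2 ± 0.719), the tightest of the 15 members of highest signal. CR46454 lies 2453 bp from a TSS of salm, the zinc-finger gene spalt major, and was the most variable of them at 32.1, 55.0 and 39.6 (42.3 ± 11.7). CR44978 starts in an intron of the receptor tyrosine phosphatase gene Lar, on its opposite strand, and had 43.9, 39.7 and 37.8 (40.5 ± 3.14). CR45345 holds mir-375, and its summit 86 bp upstream of the start reached 38.1, 36.1 and 32.9 (35.7 ± 2.60). The hairpin mir-375 and its 2 mature entries are members too and share that summit.

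Of the remaining regions, those of CR46035, CR46036 and CR46008 lay in introns of coding genes and that of CR44320 between genes. CR46035 and CR46036 both start in osa, a subunit gene of the Brahma chromatin remodelling complex, on its opposite strand, with separate summits at 33.2 ± 5.05 (2 replicates, since replicate 2 had no summit in the CR46035 window) and 30.8 ± 6.10 (SD, n = 3). CR46008 starts opposite to prospero (pros), a homeodomain gene of neural fate, and had 28.3, 39.4 and 24.2 times it. CR44320 had 34.0, 33.5 and 26.2 times the median, with its summit 18 bp downstream of the start. In all, the 15 members used 12 summits, 8 of them at intergenic starts.

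**Figure D2:**
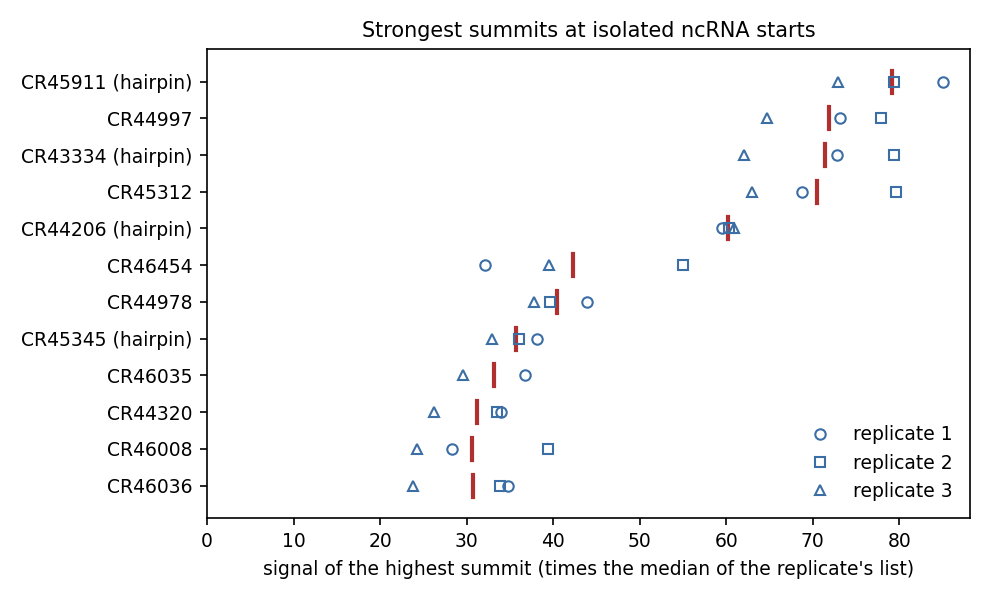
Signal of the highest summit in the window, as a multiple of the median of the replicate's own list, for the 12 distinct regions of the 15 members of highest IDR signal, with replicates 1 (circle), 2 (square) and 3 (triangle) and their mean (red bar). Genes that hold a microRNA hairpin are marked; CR45911 has a mean of 79.1 and CR46036 of 30.8, and replicate 2 has no value for CR46035.

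Where a start was occupied, its signal was near that at protein-coding starts, and the sign of the difference depended on which members were counted. The median relative signal over occupied ncRNA starts was 5.91, 5.75 and 5.30 times the list median in replicates 1, 2 and 3 (5.65 ± 0.319, SD, n = 3). Over isolated coding starts it was 5.60, 5.83 and 5.24 (5.56 ± 0.298), a log2 ratio of coding to ncRNA of -0.02 ± 0.05 (1 of 3 replicates higher, exact p = 0.75). Members over 200 nt had 5.45, 5.29 and 4.99 (5.24 ± 0.232), below the coding starts in each replicate (log2 ratio of coding to ncRNA 0.08 ± 0.05, 3 of 3 replicates, exact p = 0.25). Counting each distinct strongest summit once, the log2 ratio was 0.11 ± 0.05 (3 of 3 replicates, exact p = 0.25). Over ncRNA starts near a coding TSS it was lower in each replicate, at 4.93, 4.91 and 4.27 (log2 ratio -0.27 ± 0.04, exact p = 0.25). Summits in the ncRNA windows were 1.40 ± 0.0485 times as strong in the median as other summits over 1 kb from a coding TSS (3 of 3 replicates, exact p = 0.25). In the IDR set the signal of members ran from 259.6 through a median of 847.9 to 11753, against a median of 533.6 over all summits of the set. The member values take the strongest summit per start and repeat shared summits, so the 2 medians are unlike measures. Taken per occupied start in the same way, the median was 660.0 over all gene starts and 808.8 over isolated coding starts.

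The starts of lncRNA genes that hold a microRNA hairpin were occupied far more often than other lncRNA starts. This class was chosen after the values were seen. A gene counts here when a hairpin lies within its span on the same strand, which 31 of the 1514 lncRNA members do, with 37 hairpins among them. An IDR summit lay at 18 of the 31 starts (58.1%, 95% exact interval 39.1% to 75.5%), against 137 of the 1483 starts of genes that hold none (9.24%). The replicate shares were 58.1%, 54.8% and 61.3% for the first and 9.17%, 9.24% and 9.17% for the second. The difference was 48.9 ± 3.26 points (3 of 3 replicates, exact p = 0.25). The share was also above the 23.0% of isolated protein-coding starts in the IDR set, a difference that was not tested.

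Besides CR45911, CR43334, CR44206 and CR45345, the occupied hairpin genes included the precursors of several microRNAs with known developmental roles. CR31044, over mir-279 and mir-996, had 15.8, 18.1 and 13.9 times the list median; miR-279 restricts the formation of carbon dioxide sensing neurons. CR45361, over the muscle microRNA mir-1, had 15.2, 12.01 and 11.1. CR43650 on 2R, over mir-8, a microRNA of growth and Wingless signalling, had 10.02, 12.8 and 9.95.

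CR43314, over mir-bft (bereft), had 7.81, 9.54 and 6.97 times the median. CR43651 on 2R, over mir-14, which limits cell death and fat storage, had 8.10, 6.85 and 9.16. CR42651, over mir-10 in the Antennapedia complex with Deformed as its nearest coding gene, had 7.93, 6.47 and 5.54, with the summit 100 bp upstream of the start. These signals are lower than those of CR31044 in every replicate but lie above the list medians throughout.

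CR43459, over mir-277 and mir-34, had 4.13, 3.9 and 4.03 times the median, and CR45919, over the neuronal mir-124, had 2.22, 1.63 and 1.97, the lowest of the 18. Hsromega, a heat shock lncRNA of nuclear omega speckles, counts in this class through mir-4951, and had 24.6, 27.2 and 20.6. The other occupied hairpin genes were CR45910 (mir-1000, opposite to musashi, msi), CR45347 (mir-4973), CR46004 (mir-276b), CR42721 (mir-993) and CR45920 (mir-316), from 3.63 ± 0.649 at CR45920 to 16.95 ± 1.59 at CR45910 (SD, n = 3).

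Of the 13 hairpin genes with no IDR summit at their start, 6 had one in the pooled list. CR43857 (mir-275), iab4 (mir-iab-4), CR45916 (mir-9a) and CR43626 (mir-282) had a summit in the window in all 3 replicates, at 1.27 ± 0.328, 1.38 ± 0.630, 1.11 ± 0.447 and 1.09 ± 0.364 times the list median. CR46006 (mir-276a) and CR45388 (mir-315) had one in 1 and 2 replicates. let7C, CR44909 (mir-288), CR45918 (mir-987), CR45917 (mir-92b) and CR43836 (mir-31b) had none in any list. iab8 and CR46211 (mir-985) had one in 1 replicate each and none in the pooled list.

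At hairpin genes the summits sat close to the annotated start. The strongest summit was within 100 bp of the start at 61.1%, 64.7% and 52.6% of the occupied hairpin genes in replicates 1, 2 and 3, against 17.6%, 21.9% and 24.3% for the genes that hold none (difference 38.2 ± 8.53 points, 3 of 3 replicates, exact p = 0.25). In the IDR set the median absolute distance was 79 bp against 255 bp. The median relative signal was 10.1, 12.01 and 9.95 times the list median against 5.29, 5.02 and 4.65 (log2 ratio 1.10 ± 0.16, exact p = 0.25). That signal difference is over genes of all lengths, and it did not hold among long genes, as given below. The hairpins themselves were less often occupied: of the 30 that lie over 1 kb from the start of their gene, 6 (20.0%) had an IDR summit within 500 bp of their own start, close to the 21.5% of all gene starts. The share over all hairpin members was 8.63%. Of the 6, mir-13a and mir-2c shared 1 summit, and mir-iab-4 and mir-iab-8 shared another. The top-list shares of the 30 hairpins were 20.0%, 16.7% and 20.0%. That is 39.2 ± 1.83 points below the starts of all 31 hairpin genes (3 of 3 replicates, exact p = 0.25). The 2 sets do not correspond in full, since the 31 include genes such as CR45345 whose only hairpin lies within 1 kb of the start.

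**Figure D3:**
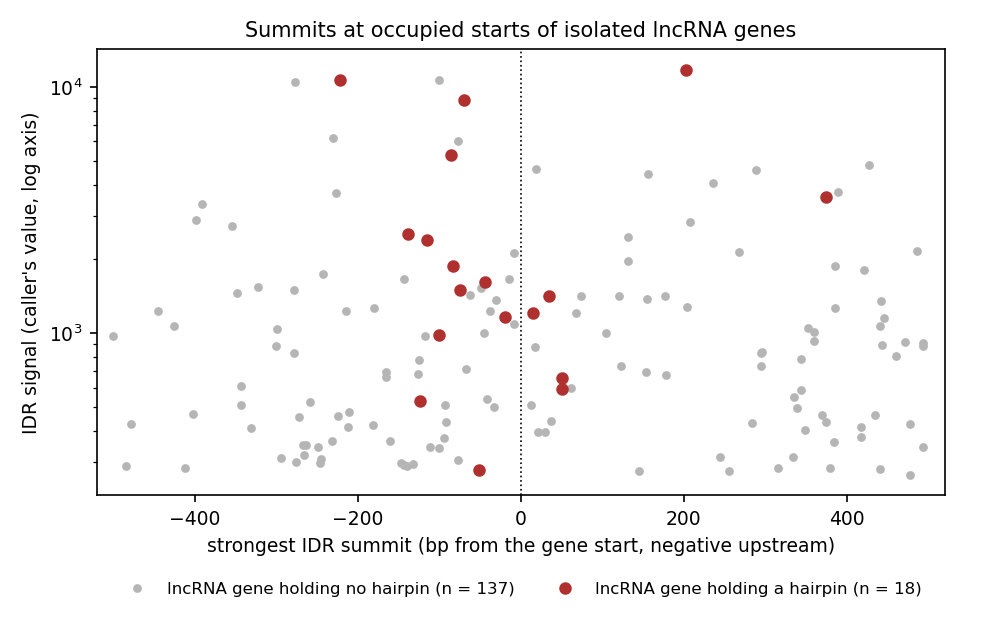
Strongest IDR summit at each occupied lncRNA start: its distance from the gene start in bp (horizontal, negative upstream) and its signal as the caller's own value (vertical, log axis). Red points are the 18 genes that hold a microRNA hairpin and grey points the 137 that hold none; 12 of the 18 red points lie within 100 bp of the start, against 26 of the 137 grey ones.

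Gene length moved with this result. The hairpin genes had a median span of 7584 bp and the others of 668 bp. Among genes over 5 kb long the top-list share was 60.0%, 55.0% and 65.0% for the 20 that hold a hairpin and 27.5%, 30.0% and 25% for the 40 that hold none, so the difference fell from 48.9 to 32.5 ± 7.5 points and kept its direction in 3 of 3 replicates (exact p = 0.25). Over 10 kb the IDR counts were 8 of 13 and 6 of 22, with exact intervals of 31.6% to 86.1% and 10.7% to 50.2% that overlap. The signal difference did not keep its direction. Over 2 kb the median IDR signal of occupied starts was 1620 with a hairpin and 1540 without. It was 1457 and 1768 over 5 kb, and 1560 and 3257 over 10 kb. These signal differences by length were not tested. Whether the genes differ in transcription in these embryos was not tested.

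**Figure D4:**
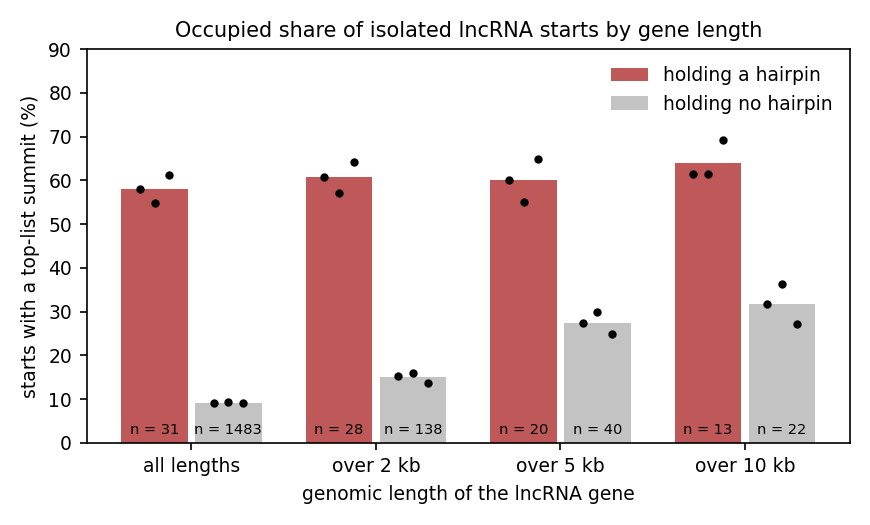
Share of isolated lncRNA starts with a top-list summit, in percent, for genes that hold a microRNA hairpin (red) and genes that hold none (grey), over all genes and over genes longer than 2, 5 and 10 kb. Bars are means of 3 replicates, dots the replicates and n the number of genes; the share of genes with no hairpin was 9.19% over all lengths and 31.8% over 10 kb.

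Among the hairpin entries taken alone, 17 of 197 (8.63%) were occupied, and only 3 of these windows also held the start of an occupied lncRNA member. mir-315 had a strong summit 321 bp upstream of the hairpin (26.7, 23.7 and 23.1 times the list median), although the annotated start of its gene CR45388 had no IDR summit. mir-iab-4 and mir-iab-8, which lie on opposite strands of the bithorax complex and repress Hox genes, shared 1 summit at 10.4, 11.95 and 10.4 times the median, while neither of the starts of iab4 and iab8 had one in the IDR set. mir-277 had a summit 373 bp upstream of the hairpin at 10.7 ± 0.642 times the median, above the 4.02 ± 0.116 at the start of its gene. mir-4962, in an intron of the kinase gene Tlk, was the strongest member inside a coding gene on the same strand, at 11.9, 14.5 and 15.3.

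A few lncRNAs with names from the literature had a Deaf1 summit at their start. Of 28 names looked up, 17 were members, and 3 of these had an IDR summit: roX1, Hsromega and acal. Among all 22 members with a name of their own in place of a number, 5 (22.7%, 95% exact interval 7.82% to 45.4%) had one, near the 21.5% of all gene starts. Their top-list share was 27.3% in each replicate, against 9.21%, 8.77% and 9.12% for other symbols (difference 18.2 ± 0.230 points, 3 of 3 replicates, exact p = 0.25). The equal shares did not come from the same genes. flam counted in replicates 1 and 2 only and iab8 in replicate 3 only, so the SD understates the uncertainty over 22 starts. roX1, an RNA of the dosage compensation complex of male flies, had its summit 177 bp downstream of its start (FBgn0019661, X, 3857230 to 3862697, minus strand), at 8.61, 11.2 and 8.77 times the list median. acal, which restrains JNK signalling in dorsal closure, had 5.25, 2.89 and 4.40 times the median.

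roX2, the partner of roX1, had a summit in the pooled list but not the IDR set, at 0.864, 0.949 and 0.988 times the list median, below the middle of each list. The relative signal of roX1 was thus above that of roX2 in every replicate, but the labels give pooled sexes, so a male share cannot be read from it. bxd, yar, CRG, let7C, cherub, noe, mimi, dntRL, Uhg3 and Uhg7 had a summit in the window in no list. flam, the piRNA cluster of ovarian somatic cells, had a summit upstream of its start in replicate 1 (166 bp, 3.903 times the median) and in replicate 2 (161 bp, 4.64 times), but none in replicate 3, the pooled list or the IDR set. The names sphinx, Uhg1, Uhg2, Uhg4, Uhg5 and Uhg8 belong to ncRNA genes within 1 kb of a coding TSS, and bft, PAN, lov, MRE16 and Uhg6 matched no ncRNA gene by symbol.

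The other 364 windows with a summit in the pooled list but not in the IDR set held weaker peaks. In the pooled list 580 members (24.9%) had a summit, against 34.9% of all gene starts and 14.2% of positions over 1 kb from a coding TSS. The pooled signal of the 364 ran from 38.7 through a median of 102.2 to 256.1, and the lowest member in the IDR set had 259.6. At members the 2 sets thus split by signal at the limit of the IDR set. The weaker signal of the 364 follows from that limit and is not a separate result. For 1595 members (68.6%) no list had a summit in the window.

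Summits gathered at the starts, but less tightly than at coding genes. Per member window the top lists held 0.114, 0.108 and 0.116 summits in the central kilobase, against 0.0554, 0.0510 and 0.0526 in flanking kilobases centred 2 to 5 kb away that were free of coding TSSs and other ncRNA starts. The ratio was 2.12 ± 0.0675 (3 of 3 replicates, exact p = 0.25), and 2.31 ± 0.102 for members over 200 nt. For members over 200 nt, the 250 bp just upstream of the start had the highest density of the bins within 5 kb, 42.8 ± 3.57 summits per 1000 starts, with 21.5 ± 2.37 in the 250 bp just downstream. That downstream value was no higher than farther on, with 26.3 ± 1.52 at 250 to 499 bp and 22.5 ± 1.29 at 500 to 749 bp. At isolated coding starts the bins just upstream and just downstream had 143.4 ± 0.995 and 81.0 ± 4.48, and the bin at 250 to 499 bp had 20.8 ± 1.37 (SD, n = 3).

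**Figure D5:**
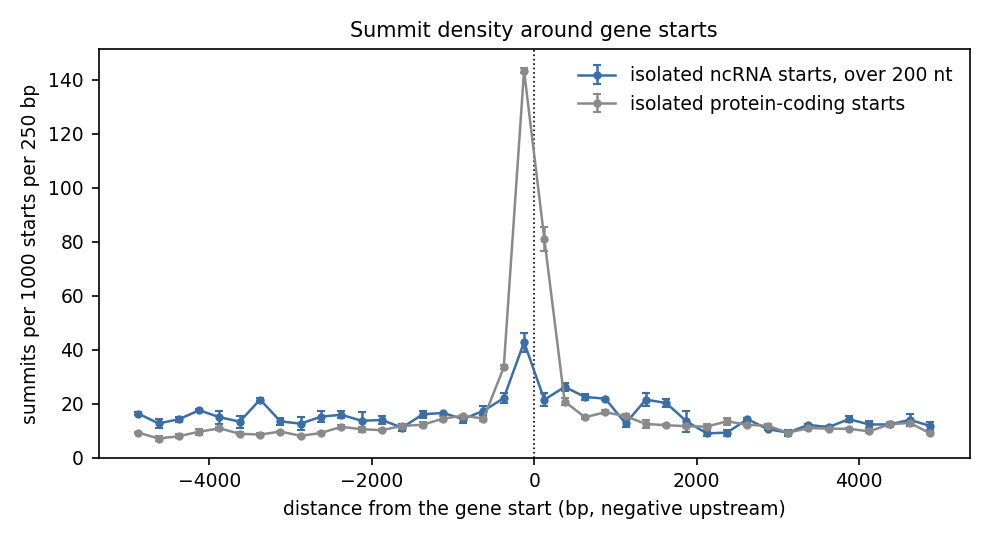
Top-list summits per 1000 starts in bins of 250 bp, by distance from the gene start (negative upstream), for isolated ncRNA starts with a transcript over 200 nt (blue) and isolated protein-coding starts (grey). Points are means and bars the SD of 3 replicates; bins are counted only where their middle lies over 1 kb from the TSSs of other coding genes, and the ncRNA line has its highest point, 42.8, just upstream of the start.

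The strongest summit lay within 100 bp of the start at 23.5%, 26.1% and 27.8% of the occupied members over 200 nt, against 56.2%, 53.7% and 54.5% of the occupied isolated coding starts (difference 29.0 ± 3.24 points, exact p = 0.25). It lay upstream of the start at 51.8%, 57.0% and 53.8% of these members, against 64.9%, 66.8% and 64.5% of the coding starts (difference 11.2 ± 1.71 points, exact p = 0.25). Both differences had the same direction in 3 of 3 replicates. Over members of all lengths the upstream share was 58.0% ± 1.44 (SD, n = 3), and over the hairpins alone 67.1% ± 4.88.

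The Deaf1 word was more frequent at these summits than beside them. TTCGG, sought as those letters or as CCGAA on the plus strand, was present within 50 bp of 52 of the 175 distinct strongest IDR summits (29.7%), against 31 (17.7%) in equal windows centred 300 bp to the right. It was present in 15.3% of all windows of this length centred over 1 kb from a coding TSS. In the replicates the shares were 31.1%, 26.2% and 27.5% at the summit and 12.4%, 16.9% and 18.5% in the flank (difference 12.3 ± 5.49 points, 3 of 3 replicates, exact p = 0.25). Other summits over 1 kb from a coding TSS held it about as often, at 27.1%, 25.7% and 27.9% (difference from the members 1.34 ± 2.33 points, exact p = 0.5). That difference is smaller than its SD between replicates.

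GAGAG, the core of GAGA factor sites, sought with its complement CTCTC and not overlapping TTCGG, was present at 41 of the 175 summits (23.4%) and in 17 flanks (9.71%), and in 11.3% of all such windows. In the replicates it stood at 25.4%, 27.9% and 24.7% at member summits against 21.8%, 19.1% and 21.7% at other distal summits (difference 5.14 ± 3.22 points, 3 of 3 replicates, exact p = 0.25). The 4-base word TTCG, which lies inside TTCGG, was at 61.1% of summits and 54.9% of flanks, with 51.8% of all windows. GC content was 45.7% ± 1.19 at the summits and 42.2% ± 0.436 in the flanks, and its part in the word shares was not tested. The 15 summits with 2 or more TTCGG words had a median IDR signal of 1413, the 37 with 1 word 776.4 and the 123 with none 731.9. Their signals ran from 283.4 to 4596, from 279.6 to 11753 and from 259.6 to 10693, so the groups overlapped widely. A difference in signal by word number was not tested.

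Occupied ncRNA starts tended to lie beside occupied coding genes. The coding gene with the nearest TSS had a top-list summit within 500 bp of a TSS for 57.3%, 57.7% and 56.0% of the occupied members, and for 36.4%, 37.0% and 37.1% of the other members (difference 20.2 ± 1.08 points, 3 of 3 replicates, exact p = 0.25). In the IDR set the counts were 125 of 216 and 775 of 2109. Members are the unit here, so 1 locus can count several times: 6 occupied members nearest Atx2 used 1 summit, as did 6 nearest abd-A. The share over all coding genes on this measure is not given. The 216 members had 162 different nearest coding genes. The windows of 4 lncRNA starts beside mtSSB held 4 distinct IDR summits, and this cluster was picked out after its values were seen.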

How the data were processed

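Per the labels, the lists are on dm6 and come from ChIP-seq of 3 biological replicates. The authors called peaks on each replicate and on the pooled reads against 1 control alignment and derived the IDR set, per the file headers. No source used here names the aligner, the caller or the IDR threshold. The deposited signal is the caller's value per peak and is not scaled between lists, so it was ranked within a list or divided by the list median. Genes came from Ensembl release 115 and sequence from RefSeq, and 1953 of the 1954 members also in RefSeq had identical coordinates. Gene starts of the background exclude transposable elements. A start was called occupied when a summit lay within 500 bp. Shares carry 95% exact Clopper-Pearson intervals over starts, which are not independent, and mean ± SD over replicates. Differences were tested by exact sign flips over 3 replicates (two-sided) with Python 3.11.15, numpy 2.4.6 and scipy 1.17.1, after the counting functions were tested on simulated data. Nothing was adjusted, since no p passed.

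Members named are the 15 of highest IDR signal, those with listed literature names and the 3 highest of each class; the hairpin genes, mtSSB, and the other hairpins named were added after the values were seen. The members and lists were chosen with earlier results of these data known. Alternatives were other windows, isolation distances, list depths, and leaving out each replicate.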

Additional observations from a re-analysis of the deposited data

How the results depend on the processing

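The occupied share followed the width and depth of the search. With the IDR set it was 5.16% within 250 bp, 14.3% within 1000 bp, 6.24% with the 4333 strongest summits, 24.9% with the whole pooled list, 12.1% when any overlap of the peak interval counted and 4.39% when it had to cover 50% of the window. In the replicates it was 5.28% and 14.2% for these windows, 5.96% and 24.8% for the 4333 strongest and for all peaks of the lists, 9.43% and 8.49% for starts isolated by 500 bp and 5 kb, and 9.59% for transcripts over 200 nt. At 5 kb 1060 starts remained. The median relative signal was 5.20 within 1000 bp, 5.30 and 7.17 at isolation of 500 bp and 5 kb and 9.16 with the 4333 strongest. The upstream share was 64.6% within 250 bp, 54.8% within 1000 bp, 61.8% and 67.8% at isolation of 2 and 5 kb and 52.4% in the whole lists.

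The log2 signal ratio of coding to ncRNA starts, -0.02 as reported, has no settled sign. It was 0.064 within 250 bp, 0.085 within 1000 bp, 0.00051, 0.045 and 0.10 at isolation of 500 bp, 2 kb and 5 kb, 0.11 with the 4333 strongest 0.0033 without replicate 1, and 0.084 with only members over 200 nt, an alternative chosen after seeing the data. The cause of these moves was not tested. The differences from coding starts and from ncRNA starts near a TSS, the ratio to flanks, the TTCGG difference and the hairpin difference kept their direction in every alternative run for them, the last under alternatives chosen after seeing the data. With genes over 5 kb the hairpin difference was 32.5 points.

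Leaving out each replicate gave shares of 9.12% to 9.33%, differences of 13.7 to 13.9 points from coding starts and 10.4 to 10.9 from starts near a TSS, a relative signal of 5.52 to 5.83, a signal log2 ratio of -0.046 to 0.0033, a flank log2 ratio of 1.06 to 1.11, an upstream share of 57.1% to 58.5%, a TTCGG difference of 9.15 to 13.97 points (9.15 without replicate 1) and a hairpin difference of 47.2 to 50.5 points. No paired analysis was possible because the series has 1 group, so no groups could be paired by replicate number. Each test above already uses differences within a replicate. Depth is unknown, and 3 replicates cannot give p below 0.25.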
